A study of Mus musculus with 2 samples.

Results

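Naive mRNA cluster 4 is a group of type 2 conventional dendritic cells (cDC2s) that the authors separated from the other cDC2s of naive mice by their mRNA. Its members were the cells carrying the authors' mRNA cluster label 4 in the naive library, and there were 273 of them. They made up 13.5% of the 2024 naive cells with such a label (95% interval 12.03 to 15.05), and the naive library held 3471 cells out of 11067 in the series. The comparison group was the 1751 other labelled naive cells, which fell into 6 clusters of 536, 432, 432, 246, 55 and 50 cells (clusters 1, 2, 3, 5, 6 and 7). These deposited labels number 7 naive and 9 papain clusters, given separately for each library, and are not a joint clustering of both.

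Transcripts and 12 surface proteins were measured in the same single cells (CITEseq). Live MHCIIhi CD11c+ B220- cells were sorted from lymph nodes of unimmunized B6 mice and of B6 mice given OVA plus papain in the rear footpads 1 day earlier, with 1 library per condition. The methods give pooled skin-draining nodes for the naive library and popliteal nodes for the papain library, while the labels of the series speak of popliteal nodes in 1 place and of skin-draining nodes in another. Immunization, node site and library therefore cannot be told apart. Cells of 1 library are not replicates, so no p-value is given, and every 95% interval here covers counting error only.

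Migratory cDC2s leave the skin, reach the draining lymph node by following CCR7 ligands and present peptides on MHC class II to CD4+ T cells. In maturing dendritic cells (DCs), transcription of MHC class II genes is shut down while peptide-loaded molecules stay on the surface, and costimulatory molecules such as CD40 and CD86 are induced. CD301b, a C-type lectin encoded by *Mgl2*, marks a subset of migratory dermal cDC2s that takes part in Th2 responses.

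The 12 proteins were read through 15-base barcodes attached to the antibodies. The barcode that carries the protein finding below, that of CD301b, and the barcode listed for both CD11b and CD24 are shown, all in lower case since no base stands out.
CD301b: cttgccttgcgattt
CD11b: tatatctttgccgca
CD24: tatatctttgccgca
Because CD11b and CD24 were listed with an identical barcode, their values were not read as separate proteins.

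Cells of cluster 4 had a median of 13210 UMIs (range 6454 to 25843) against 14403 in the other labelled cells, and a median of 2981 detected genes against 3113. The medians of the other clusters ran from 5929 UMIs in cluster 6 to 20541 in cluster 7. Ribosomal protein genes took 15.3% of the UMIs of cluster 4, more than in any of the other clusters (8.29% to 14.5%). Of the 273 cells, 3.66% had a *Cd3e* or *Trac* transcript, against 56.0% in cluster 7. No cell barcode of cluster 4 occurred in the papain library, and the libraries shared 2 barcodes in all.

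The cells of cluster 4 carried little CD301b. The mRNA labels were given only to cells that the authors classed as cDC2s. The authors told cDC2s from cDC1s and LCs by CD172a, XCR1 and CD326. The values of these 3 antibodies therefore restate that choice and are given as a check of the label. A separate label from the authors' map of antibody values called 270 cells of cluster 4 cDC2, 2 LC and 1 cDC1. The authors' antibody values are on a natural log scale. The CD172a (SIRPa) value, which marks cDC2s, had a median of 1.69 in cluster 4, against 1.67 in the other labelled cells, 0.123 in cDC1s and 0.751 in Langerhans cells (LCs). XCR1, the chemokine receptor of cDC1s, had a median of 0.121 in cluster 4 and 1.26 in cDC1s. CD326 (EpCAM), an adhesion molecule of LCs, had a median of 0.505 in cluster 4 and 3.42 in LCs. The 15 listed cDC2 identity transcripts summed to 802 UMIs per 1000000 (CPM) in cluster 4, against 857, 768 and 860 CPM in clusters 1, 2 and 3. Clusters 5, 6 and 7 had 3255, 1236 and 744 CPM, cDC1s 540 CPM and LCs 455 CPM. Of the 15, *Cd209a*, *Clec10a* and *Cd209d* had no UMI in cluster 4. *Clec10a* also had none in clusters 2, 3 and 7, and *Cd209a* none in cluster 7. *Sirpa* mRNA, which encodes CD172a, was at 39.3 CPM against 105 CPM in the other labelled cells, but at 31.6 CPM in cluster 3.

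The CD301b antibody value had a median of 0.425 in cluster 4 and 1.36 in the other labelled cells. In clusters 1, 2, 3, 5, 6 and 7 the medians were 1.75, 1.595, 1.11, 0.527, 1.61 and 0.287, which left only the small cluster 7 below cluster 4 on this scale. In raw numbers, the median cell of cluster 4 had 11 CD301b antibody counts and the median other labelled cell 85, and here cluster 4 was the lowest, with 16.5 in cluster 7 and 17.5 in cluster 5, while the median total of antibody counts was 6766 and 7902. Of the cells of cluster 4, 90.5% (86.4 to 93.7) lay under the median of cluster 1 and 56.4% (50.3 to 62.4) under that of cluster 5. The distributions overlapped in every case, the highest cell of cluster 4 reaching 2.57, above the upper quartile of 2.26 in cluster 1.

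**Figure D1:**
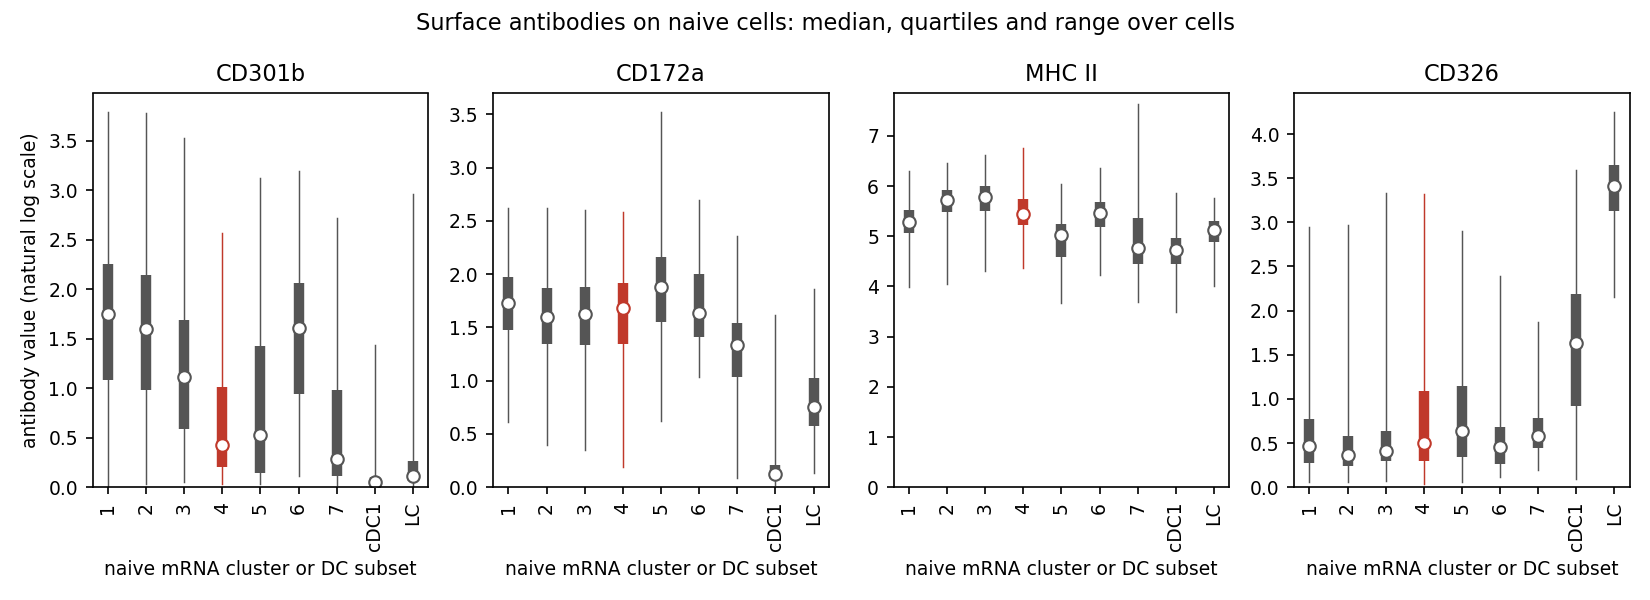
Antibody values on naive cells (y axis, natural log scale) in the 7 mRNA clusters of cDC2s and in cDC1s and LCs (x axis); circles are medians over cells, thick bars the quartiles, thin lines the range, and cluster 4 is red. Cluster 4 had a CD301b median of 0.425 against 1.75 in cluster 1. Its CD172a and MHC II medians, 1.69 and 5.45, lay within the ranges of the other cDC2 clusters (1.33 to 1.88 and 4.76 to 5.79).

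The authors also placed each cDC2 in a CD301b class, which follows the same antibody value and is no separate readout. CD301b-low cells were 176 of the 273 cells of cluster 4 (64.5%, 58.5 to 70.1), CD301b-intermediate cells 65 (23.8%, 18.9 to 29.3) and CD301b-high cells 32 (11.7%, 8.16 to 16.1). In the other labelled cells the CD301b-low share was 27.5% (25.4 to 29.7). Clusters 5 and 7 had CD301b-low shares of 58.1% (51.7 to 64.4) and 68.0% (53.3 to 80.5), whose intervals overlap that of cluster 4, whereas cluster 1 had 13.1% (10.3 to 16.2). Read the other way, 26.7% of the naive CD301b-low cDC2s belonged to cluster 4, against 9.86% of the CD301b-intermediate and 4.53% of the CD301b-high cells. A low CD301b value was therefore frequent in cluster 4 without being particular to it.

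The other antibodies moved less. MHC class II, for which all cells had been sorted high, had a median of 5.45 in cluster 4 and 5.48 in the other labelled cells. CD11c had medians of 2.43 and 2.08, within the range of 1.36 to 3.65 over the other clusters, and CD8a 0.416 and 0.522. CD64, a monocyte and macrophage Fc receptor, was near 0 in both, at 0.0556 and 0.0442.

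For the mRNA, the UMIs of all cells in a group were added and expressed as CPM, and ratios were taken as log2 of CPM plus 1. Since the clusters were made from these same genes, the values below describe cluster 4 and test nothing. Of 2649 genes that reached 50 CPM on the higher side, 18 were at least 2-fold higher in cluster 4 (0.68%) and 98 at least 2-fold lower (3.7%). Of the 18 higher genes, 15 were above the level in each of the 6 other clusters, as were 380 of all genes tested, and of the 98 lower genes 53 were below each of them, as were 356 of all genes tested. Levels below those of the other labelled cDC2s were not particular to cluster 4. Clusters 3 and 7 lay below this pool for 82 and 87 of the 98 genes, and LCs for 93. The share of all genes tested that lay below it was not counted. The 98 genes were chosen for a high level in this same pool, which by itself favours low ratios in other groups. For 68 of them LCs were at least 2-fold lower, as they were for 6.95% of all genes tested. In cDC1s these counts were 87 and 57, beside 9.06% of all genes tested. Among the cDC2s, the lower side owed much to cluster 5, in which 45 of the 98 genes had their highest level. Without cluster 5, a comparison chosen after seeing the data, 18 genes were higher (0.685%) and 89 lower (3.39%) of 2627 tested, and 12 and 59 of them were among the genes called before.

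The genes higher in cluster 4 were led in abundance by *Ccl5*, a chemokine that draws T cells. *Ccl5* was at 13556 CPM in cluster 4 (13438 to 13675) and 4286 CPM in the other labelled cells, a log2 ratio of 1.66 (1.65 to 1.68). Its levels in clusters 1, 2, 3, 5, 6 and 7 were 5851, 2741, 6296, 1332, 1736 and 3944 CPM, all under that of cluster 4, but LCs had 11737 and cDC1s 30496 CPM. Over single cells, the median was 11402 CPM in cluster 4 and 2227 CPM in the others, and every cell of cluster 4 had a *Ccl5* transcript. The high level was thus spread over the cluster rather than carried by a few cells.

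The highest ratio belonged to *Fabp4*, a fatty acid binding protein, at 109 CPM in cluster 4 against 24.5 CPM in the other labelled cells (log2 ratio 2.11, 1.97 to 2.33). *Fabp4* was found in 26.4% of the cells of cluster 4 and 8.45% of the others, and cluster 1 had 50.9 and cluster 6 66.7 CPM, so it marked a fraction of cells in several clusters. *Flrt3*, a membrane protein of the FLRT family involved in cell adhesion, was at 320 CPM against 91.9 CPM (1.79) and in 53.1% against 26.0% of cells. *Gpr65*, a proton-sensing receptor, was at 123 CPM in cluster 4, against 23.7, 23.1 and 11.2 CPM in clusters 1 to 3 and 93.5 CPM in cluster 5. The shares also differed with each cell thinned to 8355 UMIs, where *Flrt3* was found in 49.2% of the cells of cluster 4 and 21.6% of the others, and *Gpr65* in 33.5% and 15.4%, with 12 and 191 shallower cells left out. After thinning, *Gpr65* was as frequent in cluster 7 (33.5%) and more frequent in cluster 5 (38.3%).

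Among cytokine-related genes, *Cxcl10*, an interferon-induced ligand of CXCR3, was at 113 CPM against 41.1 CPM in the other labelled cells, with a higher level, 151 CPM, in cluster 7. *Ccrl2*, an atypical receptor that binds chemerin, was at 330 against 151 CPM, and cluster 5 (398 CPM) and LCs (408 CPM) exceeded it. *Il21r* was at 178 against 83.2 CPM, *Il7*, a survival factor for T cells, at 125 against 59.9 CPM, and *Socs1*, an inhibitor of cytokine signalling, at 122 against 56.2 CPM. *Il21r*, *Il7* and *Socs1* were higher in cluster 4 than in each other cDC2 cluster, but *Il7* was close in cluster 3, at 116 CPM. With each cell thinned to 8355 UMIs, *Socs1* was found in 45.2% of the cells of cluster 4 and 45.9% of those of cluster 7. *Il21r*, *Il7* and *Socs1* were also high in LCs, which had 190, 132 and 199 CPM.

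*Slc7a11*, the cystine transporter subunit xCT, was at 394 against 155 CPM, was found in 80.6% against 50.7% of cells, and had 245 CPM in cluster 1 and 370 CPM in cluster 6. The growth factor receptor gene *Igf1r* was at 99.1 against 46.4 CPM, with 123 CPM in cluster 7, and the secreted Wnt ligand *Wnt11* at 67.3 against 32.2 CPM. *Eprs*, a tRNA synthetase gene, was at 279 CPM against 135 CPM but in 59.0% against 51.3% of cells, so its difference lay in the level per cell more than in the share of cells. The others were *Bmyc* (60.6 against 22.8 CPM), *Art2a* (67.1 against 27.4 CPM, level with 66.8 CPM in cluster 3), *Ift57* (78.3 against 38.1 CPM), *1110038B12Rik* (77.2 against 37.3 CPM) and *2410006H16Rik* (775 against 362 CPM).

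**Figure D2:**
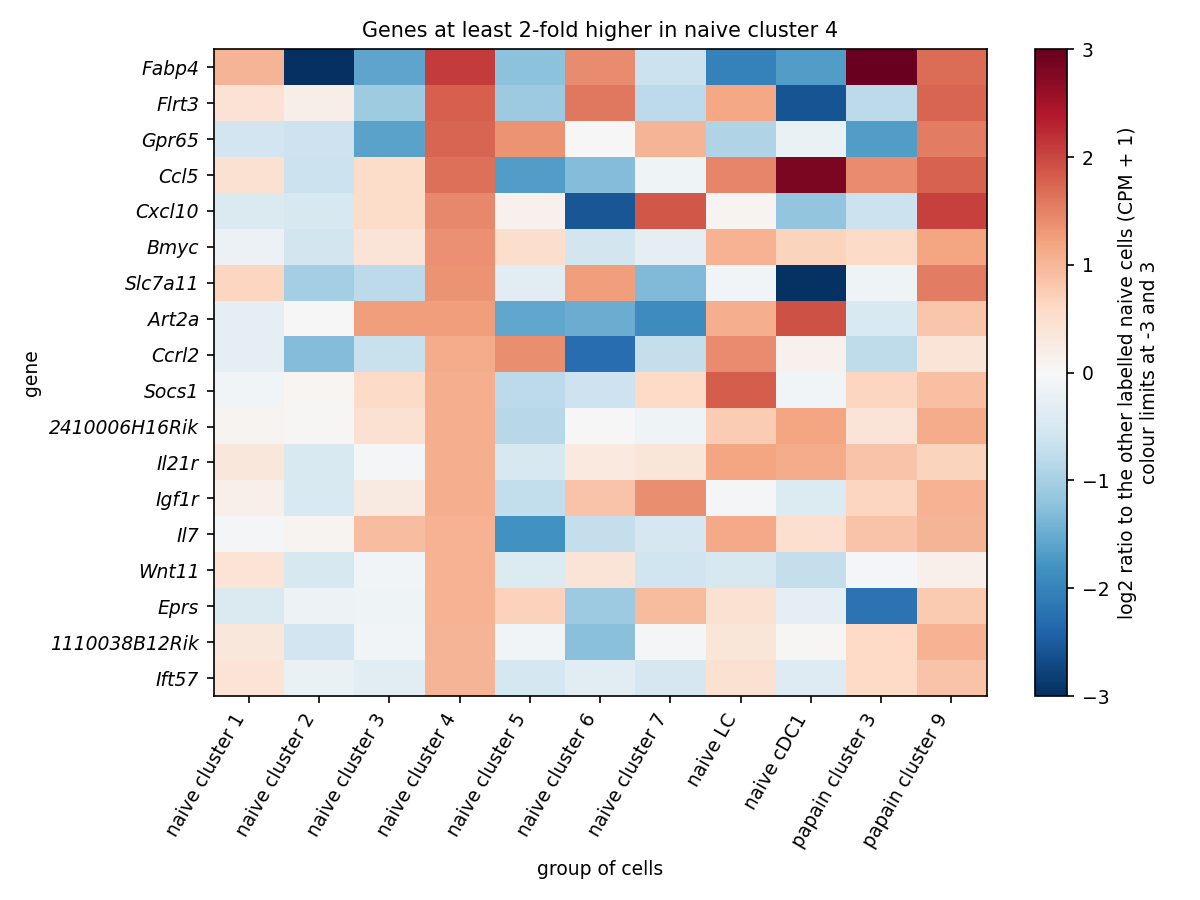
The 18 genes at least 2-fold higher in naive cluster 4 (y axis) in groups of cells (x axis); colour is the log2 ratio of CPM plus 1 to the other labelled naive cells, with limits at -3 and 3. All columns share these reference cells, and naive cluster 4 is red throughout because its genes were chosen so; *Flrt3* is at 320 CPM in naive cluster 4 and 312 CPM in papain cluster 9.

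Genes of MHC class II presentation were the largest group among the lower genes. Of 16 tested members of this list, 9 were at least 2-fold lower and none higher, where 3.7% of all genes tested were lower and 0.68% higher. The median log2 ratio of the list was -1.27, against -0.06 over all genes tested. *H2-Ab1*, a beta chain of MHC class II, was at 527 CPM in cluster 4 (504 to 550) and 2497 CPM in the other labelled cells (log2 ratio -2.24). *Cd74*, the invariant chain that escorts class II, was at 3427 against 9823 CPM (-1.52), and *Ciita*, the class II transactivator, at 7.75 against 52.9 CPM (-2.62). *H2-Eb1* was at 1189 against 3363 CPM, and *H2-Aa*, *H2-Eb2*, *H2-DMa*, *H2-DMb1* and *H2-DMb2* had log2 ratios of -1.46, -1.09, -2.23, -1.57 and -2.29. *Ctss*, a protease that trims the invariant chain, was at 0.03.

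Cluster 5 set the size of these differences, with 9317 CPM of *H2-Ab1* and 22808 CPM of *Cd74*. Clusters 1, 2 and 3 had 928, 1312 and 697 CPM of *H2-Ab1* and 6205, 9871 and 5311 CPM of *Cd74*, so cluster 4 was still the lowest for both genes. This did not hold for *H2-DMb1*, at 22.4 CPM in cluster 4 and 21.5, 20.1 and 15.9 CPM in clusters 1, 2 and 3. Without cluster 5 the median of the list was -0.68 over 13 genes. Of these, 2 were at least 2-fold lower, against 3.39% of all genes tested. At the level of single cells, the median *H2-Ab1* level was 83.3 CPM in cluster 4 and 208 CPM in the others, while 10% of cells lay above 1565 and 8158 CPM. The MHC class II antibody, with medians of 5.45 and 5.48, did not follow the mRNA, and cluster 5, the highest by mRNA, had an antibody median of 5.02.

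*Nlrc5*, the transactivator of MHC class I, was at 50.2 CPM in cluster 4 against 147 CPM (log2 ratio -1.53). It was the lone member of the class I presentation list past 2-fold, of 19 tested, where 3.7% of all genes tested were lower. The median of that list was -0.30, or -0.44 without cluster 5.

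Several costimulatory molecules were lower as well, with or without cluster 5. Of 11 tested members of the costimulation and checkpoint list, 4 were at least 2-fold lower (3.7% over all genes tested) and none higher (0.68%), with a median of -0.41, or -0.50 without cluster 5. *Cd40*, the receptor through which T cells license DCs, was at 144 CPM in cluster 4 (132 to 156) and 409 CPM in the other labelled cells, with 605, 479 and 178 CPM in clusters 1, 2 and 3, 113 CPM in cluster 5 and 676 CPM in cluster 6. *Tnfsf9* (4-1BB ligand) was at 55.6 against 174 CPM, *Icosl* at 60.1 against 136 CPM and *Pvr* (CD155), which binds DNAM-1 and TIGIT, at 103 against 232 CPM. *Icosl* and *Pvr* were lower in cluster 4 than in every other cluster, whereas *Cd40* was lower in cluster 5 and *Tnfsf9* in clusters 3 and 7. *Cd80* and *Cd86*, ligands of CD28, had log2 ratios of -0.10 (-0.31 to 0.10) and -0.24 (-0.38 to -0.11), and *Cd200*, an inhibitory ligand, was at 102 against 58.8 CPM (0.78).

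Genes of migration and maturation mostly stayed within 2-fold. *Ccr7* was at 3864 CPM in cluster 4 and 3634 CPM in the other labelled cells (log2 ratio 0.09, 0.06 to 0.11), and every cell of cluster 4 had a *Ccr7* transcript. *Fscn1*, an actin bundling protein of mature DCs, was at 1219 against 1899 CPM (-0.64), and *Ccl22*, a ligand of CCR4, at 1064 against 1826 CPM (-0.78). Of 28 tested members of the maturation and migration list, 1 was at least 2-fold higher (*Ccl5*) and 3 lower (*Cd40*, *Icosl* and *Apol7c*), against 0.68% and 3.7% over all genes tested, with a median of -0.24, or -0.46 without cluster 5. *Apol7c*, an apolipoprotein L family gene of activated DCs, was at 788 against 1772 CPM.

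Of 5 tested members of the cytokine list, *Il1b* and *Tnf* were at least 2-fold lower and none higher. This list does not hold *Il7*, which was at least 2-fold higher (125 against 59.9 CPM). Of 10 tested chemokine genes 2 were higher (*Ccl5* and *Cxcl10*) and 3 lower (*Ccl4*, *Ccl6* and *Ccl9*). Over all genes tested, 0.68% were higher and 3.7% lower. *Il1b* was at 149 CPM in cluster 4 and 742 CPM in the other labelled cells (log2 ratio -2.31), with 435, 577 and 326 CPM in clusters 1, 2 and 3 and 2111 CPM in cluster 5. *Il1b* was found in 30.0% of the cells of cluster 4 and 54.2% of the others, or 24.2% and 51.4% after thinning. *Tnf* was at 25.6 against 71.4 CPM and *Nfkbid*, a nuclear regulator of NF-kB, at 95.1 against 255 CPM, each below all 6 other clusters. Of 22 tested NF-kB subunits and regulators, *Nfkbid* was the one past 2-fold, where 3.7% of all genes tested were lower. The median was -0.35. *Gpr183* (EBI2), an oxysterol receptor that positions DCs in lymphoid tissue, was at 134 against 346 CPM, and *Stat5a* at 43.8 against 89.7 CPM. *Il2* was at 4.01 CPM in cluster 4 and 3.82 CPM in the other labelled cells, in 5.13% and 5.60% of cells, which is too few UMIs (15 in cluster 4) to show a difference (log2 ratio 0.06, -0.82 to 0.86). *Il2ra*, which encodes the IL-2 receptor chain CD25, was at 49.7 against 60.02 CPM (-0.27).

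Of 9 tested members of the cholesterol list, 2 had a ratio above 0, as did 1190 of all 2649 genes tested, and 2 were at least 2-fold lower, against 3.7% of all. *Hmgcs1*, an early enzyme of the pathway (44.9 against 111 CPM), and *Insig1*, its feedback regulator (33.9 against 74.3 CPM), were the ones past 2-fold. *Cyp51*, an enzyme of the pathway, and *Srebf2*, a transcription factor that drives it, had log2 ratios of -0.87 and -0.60. The median was -0.78, or -0.87 without cluster 5. Actin and cell shape genes had a median of -0.49 over 26 genes with 1 past 2-fold (*Lcp1*, -1.04), against 3.7% of all genes tested. *Actb* was at -0.84. Respiratory chain genes stood at 0.14 over 26 genes, with none past 2-fold. Ribosomal protein genes and pseudogenes, taken by symbol after seeing the data, had a median of 0.25 over 151 genes, 127 of them above 0 and none past 2-fold. Of the 33 interferon-stimulated genes listed, 6 were tested, with a median of 0.48 and only *Cxcl10* past 2-fold (0.68% of all genes tested were higher). Against cluster 1 alone the median was -0.04 over 9 genes. Of these, 1 was at least 2-fold higher and 3 lower, against 0.793% and 3.66% of all genes tested.

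**Figure D3:**
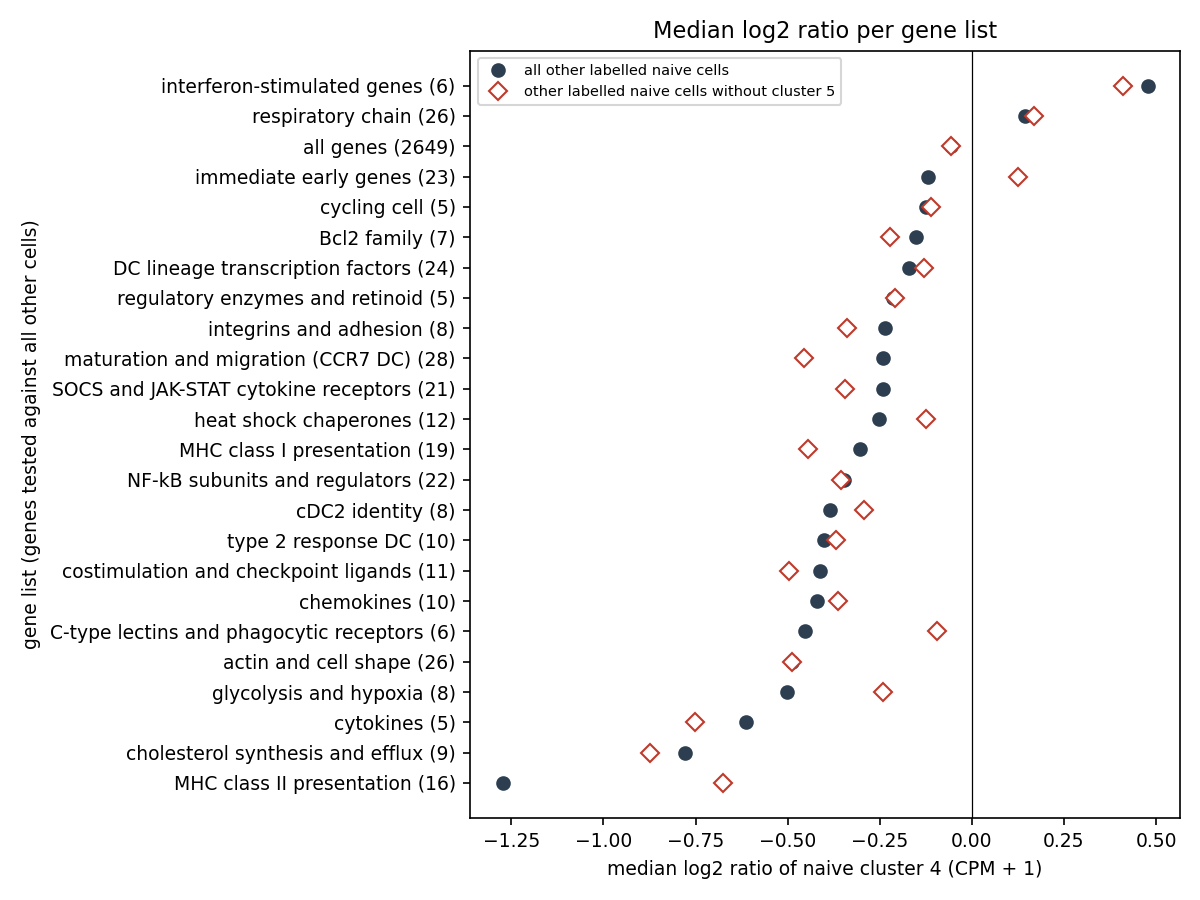
Median log2 ratio of CPM plus 1 (x axis) of naive cluster 4 over all other labelled naive cells (filled circles) or over those without cluster 5 (open diamonds), for each gene list with at least 5 tested genes (y axis, number tested in parentheses). The MHC class II list moves from -1.27 to -0.68, and the immediate early genes from -0.12 to 0.13.

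The lowest ratios belonged to genes that were high in cluster 5. *Plaur*, *Wfdc17*, *Lyz2*, *Cd53* and *Ly6e* had log2 ratios of -4.53, -4.49, -3.56, -3.56 and -3.51, with *Ly6e* higher still in cluster 7 (429 CPM) than in cluster 5 (171 CPM). *Lyz2*, the lysozyme of myeloid cells, was at 58.2 CPM in cluster 4 and 3763 CPM in cluster 5, but at 31.0, 10.0 and 24.6 CPM in clusters 1, 2 and 3, so that without cluster 5 its log2 ratio was 0.98. *Plbd1*, a lysosomal phospholipase, likewise went from -2.72 to 0.97. *Mgl2*, which encodes CD301b, had 2 UMIs in cluster 4 (0.53 CPM, log2 ratio -5.08), and clusters 1, 2 and 3, which carry the protein, had 1.88, 0.64 and 1.41 CPM against 276 CPM in cluster 5. In the naive cDC2s the CD301b antibody and *Mgl2* mRNA were thus not ordered alike over clusters. *Mki67*, a marker of proliferating cells, was at 15.8 CPM in cluster 4, below all other clusters, and *Khdc1a* at 8.02 CPM against 151 CPM in cluster 2. *Dnase1l3*, an extracellular DNase, was at 61.7 against 264 CPM.

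**Figure D4:**
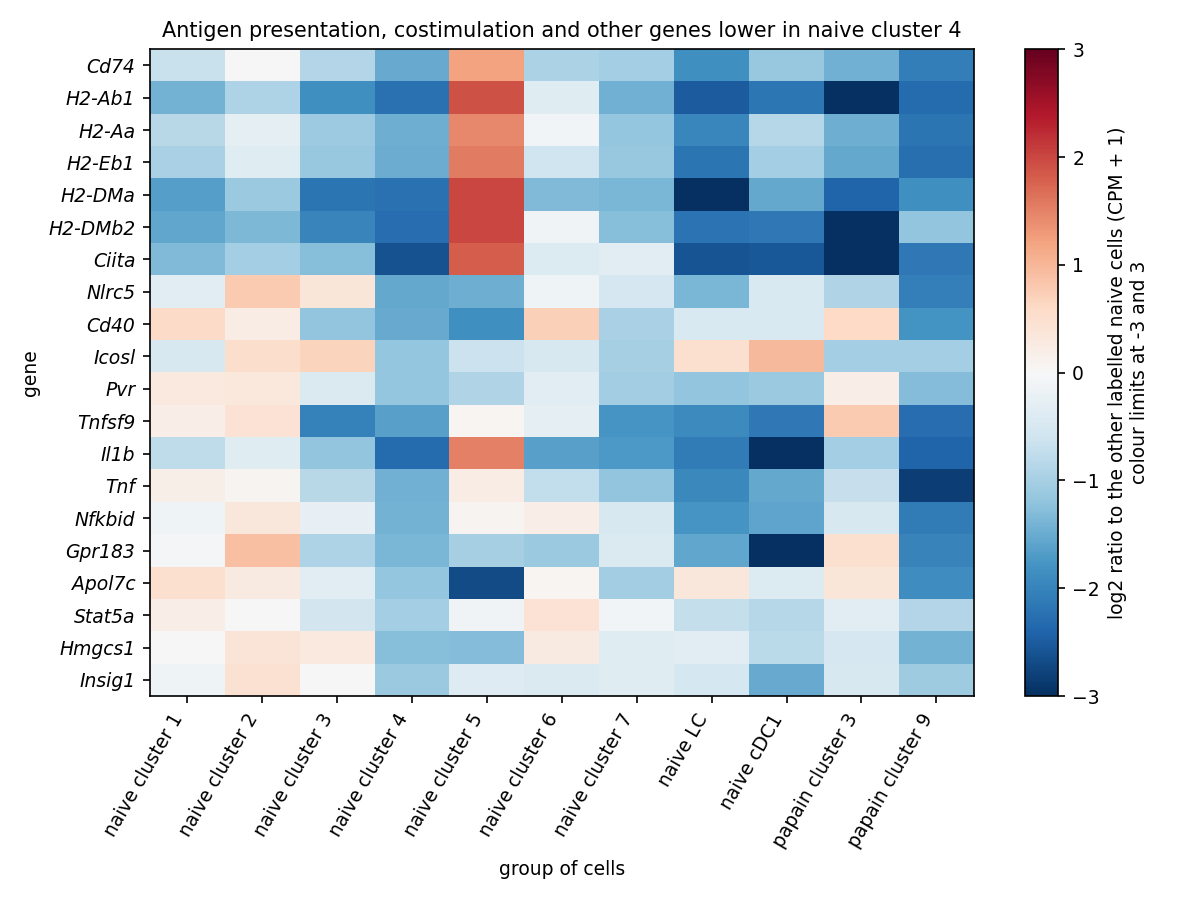
Genes of antigen presentation, costimulation, inflammation and cholesterol synthesis (y axis) in groups of cells (x axis); colour is the log2 ratio of CPM plus 1 to the other labelled naive cells, with limits at -3 and 3. Naive cluster 5 is red for MHC class II genes and blue for *Cd40*, and naive cluster 4 is blue in every row, since the genes were taken from those lower in it.

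Summed levels of markers of other cells in cluster 4 lay within or below the range of the other cDC2 clusters, and their part in the differences above was not tested. The summed level of 13 listed monocyte and macrophage markers was 130 CPM in cluster 4, with *Ly6c2* and *Fcgr1* at 0, between 45.6 and 4603 CPM in the other clusters. The 11 T cell markers, with *Cd28* at 0, summed to 130 CPM against 147 to 1802 CPM, and the 10 B cell markers to 39.3 CPM against 15.1 to 644 CPM, with *Cd79a*, *Pax5* and *Fcmr* among those at 0. The 8 LC markers summed to 300 CPM against 996 CPM in LCs, with *Cd207* at 0 of 3742974 UMIs, for which the exact Poisson upper limit is 0.986 CPM, and *Epcam* at 4.01 CPM against 102 CPM in LCs. The 11 listed cDC1 markers summed to 488 CPM, against 923 CPM in cDC1s and 349 to 555 CPM in the other clusters. *Tlr3* and *Gcsam* were at 0 in cluster 4, as they were in clusters 3, 6 and 7.

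The naive cluster most like cluster 4 was cluster 1, with a Pearson r of 0.962 over 3849 genes (log2 CPM plus 1, across genes, which are not independent replicates). Against cluster 1, 21 of 2649 genes were at least 2-fold higher in cluster 4 (0.793%) and 97 lower (3.66%). *Gpr65* led the higher genes (123 against 23.7 CPM), followed by *Cxcl10*, *Ptpn18*, *Bmyc*, *Art2a*, *Eprs*, *Ccrl2*, *Flrt3* and *Rrad*, with log2 ratios of 1.87 to 1.33. *Mki67* (15.8 against 86.9 CPM), *Serpinb9b*, *Dnase1l3*, *Ccl9*, *Cd40*, *Rasgef1b* and *Ccnd2* led the lower genes. *Flna*, which crosslinks actin, was at 51.3 against 197 CPM, and *Anxa2* at 193 against 626 CPM. Of the MHC class II list 1 of 13 tested genes was past 2-fold against cluster 1, with a median of -0.59, so the class II difference to the nearest cluster was smaller than to the pool.

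LCs were nearly as similar to cluster 4 as cluster 1 was, with an r of 0.954. Side by side, *Flrt3* was at 320 CPM in cluster 4 and 207 CPM in LCs, *Cd74* at 3427 and 2765 CPM, and *Nfkbid* at 95.1 and 73.75 CPM. Both groups nevertheless differed in named genes. *Fabp4* (109 against 5.27 CPM), *Dpp4* (63.6 against 9.03 CPM), the retinoic acid producing *Aldh1a2* (53.2 against 7.53 CPM) and the transcriptional regulator *Lmo4* (201 against 34.1 CPM) were higher in cluster 4. *Mfge8* (106 against 657 CPM), *Hebp1* (8.28 against 88.2 CPM) and *Epcam* were lower. So were *Cd40* (144 against 299 CPM), *Icosl* (60.1 against 191 CPM) and *Apol7c* (788 against 2235 CPM), each at least 2-fold. For *Icosl* and *Apol7c* LCs also lay above the other labelled cDC2s, which had 136 and 1772 CPM. In all, 69 genes were at least 2-fold higher in cluster 4 than in LCs (2.64%) and 64 lower (2.45%), of 2611 tested, and the LC genes above were picked after their values were seen.

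The 176 CD301b-low cells of cluster 4 differed from its other 97 cells by at least 2-fold in 10 genes that were higher (0.398%) and 7 that were lower (0.278%), of 2515 tested. *Il6* was at 52.5 CPM in the CD301b-low and 19.0 CPM in the other cells, and the tetraspanin *Cd81* at 74.5 and 33.8 CPM. *Calm4* was at 20.2 and 91.5 CPM, *Ehf*, an epithelial-type ETS factor, at 75.8 and 182 CPM, and the neutrophil chemokine *Cxcl1* at 87.4 and 286 CPM. Most of these values rest on few cells. *Il6* was found in 15.9% of the CD301b-low and 8.25% of the other cells, *Calm4* in 7.95% and 28.9%, and *Cxcl1* in similar shares, 20.45% and 23.71%. *Lyz2* (87.8 and 9.86 CPM) was found in 12.5% and 12.4%, and *Retnla* (5.17 and 66.9 CPM) in 2.84% and 8.25%. When CD301b-low cells of cluster 4 were set against CD301b-low cells of the other clusters, 29 of 2742 genes were higher (1.06%) and 153 lower (5.58%), and 11 and 64 of them were among the 18 and 98. Of the 482 CD301b-low cells outside cluster 4, clusters 3 and 5 held 143 each.

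In the papain library, cluster 9 had levels close to those of naive cluster 4, although its differences from its own library were not most like those of naive cluster 4. The naive clustering did not use these cells, and papain cluster 9 is singled out here after its values were seen. Papain cluster 9 had 216 of 6190 labelled papain cells (3.49%, 3.05 to 3.98). Its log2 CPM correlated with that of naive cluster 4 at an r of 0.960 over 4133 genes, against 0.920, 0.897, 0.912, 0.785, 0.776 and 0.863 for naive clusters 1, 2, 3, 5, 6 and 7. Its level was within 2-fold of that of naive cluster 4 for 98.5% of the 2649 tested genes, against 75.8% to 90.9% for the other papain clusters and 70.7% to 95.7% for the other naive clusters. All 18 higher genes and 80 of the 98 lower genes were within 2-fold.

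Level by level, *Ccl5* was at 14528 CPM in papain cluster 9 and 13556 CPM in naive cluster 4, *Flrt3* at 312 and 320 CPM, *Slc7a11* at 456 and 394 CPM, *Gpr65* at 107 and 123 CPM and *Eprs* at 235 and 279 CPM. *Cd40* was at 118 and 144 CPM, *Apol7c* at 484 and 788 CPM, *Gpr183* at 85.1 and 134 CPM and *Cd74* at 2324 and 3427 CPM. The pooled labelled papain cells had 725 CPM of *Cd40*, 2845 CPM of *Apol7c* and 510 CPM of *Gpr183*, above the 409, 1772 and 346 CPM of the other labelled naive cells. Surface CD301b was low in papain cluster 9 too, with a median antibody value of 0.371 and 69.0% CD301b-low cells (62.4 to 75.1), and ribosomal protein genes took 15.8% of its UMIs.

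Within the papain library, papain cluster 9 was compared with the other labelled papain cells. Of the 18 higher genes, 16 were tested there, and 7 of these were at least 2-fold higher (background 3.21% of 2862 genes). Of the 98 lower genes, 68 were tested and 42 of these were at least 2-fold lower (background 8.7%), the rest of both lists lying under 50 CPM on both sides. *Cxcl10* had a log2 ratio of 2.46, *Gpr65* of 2.91 and *Flrt3* of 2.06, whereas *Fabp4* was at -0.70, with 80.3 CPM in papain cluster 9 and 198 CPM in papain cluster 3. Some of the genes with the lowest ratios in naive cluster 4 went the other way, with *Cd53*, *Ly6e* and *Mgl2* at 2.16, 2.01 and 2.28 in papain cluster 9, and *H2-Ab1* was at -0.34 (-0.42 to -0.26). When each library was centred on its own clusters, papain cluster 3 had the highest r with naive cluster 4 (0.495) and papain cluster 9 only 0.130, its own highest values being with naive clusters 7 (0.468) and 5 (0.355). Papain cluster 3 had 0 of 13 tested higher genes past 2-fold (background 0.0756%) and 6 of 68 lower genes (background 0.34%).

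**Figure D5:**
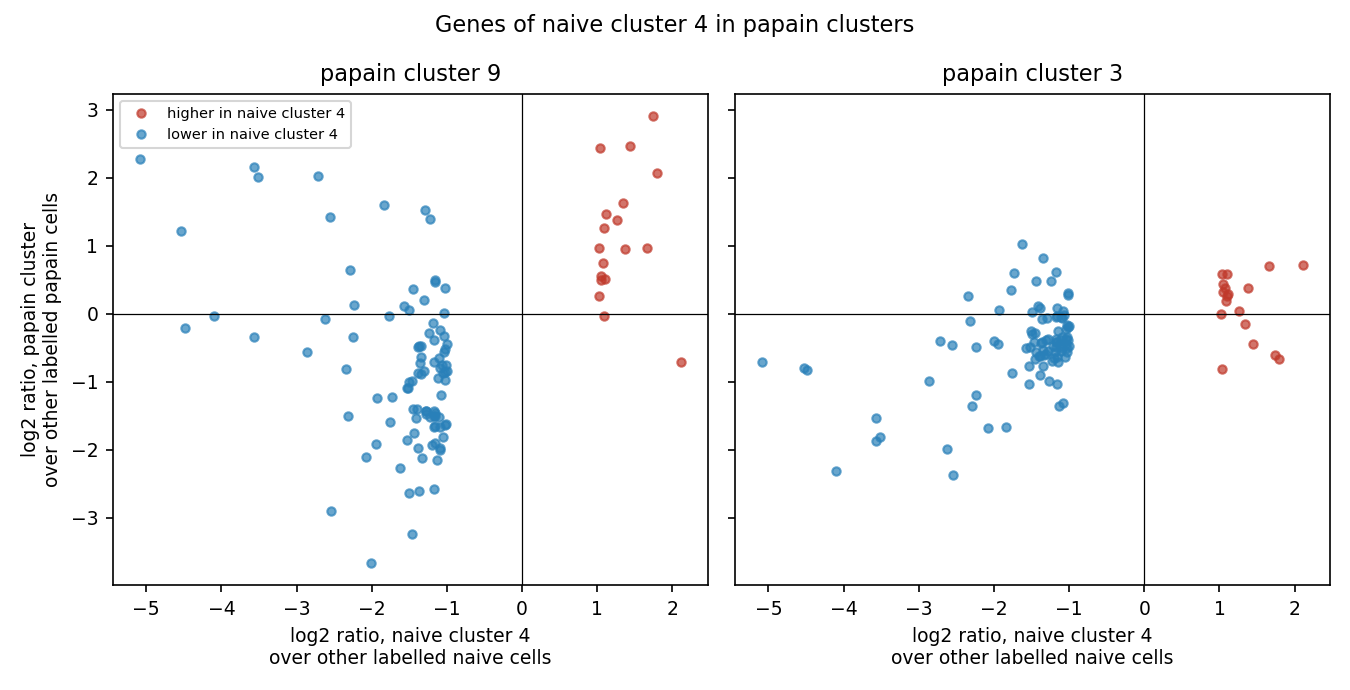
Log2 ratios of the 18 higher (red) and 98 lower (blue) genes of naive cluster 4, over the other labelled naive cells (x axis) and, in papain clusters 9 and 3, over the other labelled papain cells (y axis). In papain cluster 9 most points lie on the same side of 0 as in naive cluster 4, with exceptions such as *Cd53* and *Mgl2*, and in papain cluster 3 few points pass 1 or -1.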

How the data were processed

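The authors sequenced both libraries, and their processing notes name Cell Ranger 3.0.1, Partek and mm10. The expression values they deposited are log2 of counts per 1000000 in a cell (CPM), plus 1. UMIs were recovered from them exactly (100% of values up to 50 UMIs whole within 0.02 UMIs). The deposited number of detected genes is in counts, as are the antibody totals. The deposited total of the expression table is a score, the sum of log2 values, and the deposited mitochondrial percent is a share of that sum; neither was used for a result. The antibody values deposited by the authors are on a natural log (ln) scale, relative to the geometric mean over the antibodies of a cell. The deposited antibody list was used for barcodes only.

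Cells were grouped by the deposited mRNA cluster labels and CD301b classes. UMIs were summed per group and scaled to CPM. Log2 ratios used a pseudocount of 1 CPM, and a gene was counted as higher or lower at a 2-fold difference where the higher side reached 50 CPM. Intervals (95%) are exact Poisson for CPM, exact Clopper-Pearson for shares and exact conditional binomial for ratios, the last without the pseudocount. No p-value was computed, with 1 library per condition. Each gene named is among the 15 highest or 15 lowest ratios (found in at least 10% of the higher group's cells), a member of a gene list reaching 50 CPM in a group, or named beside a comparison of its own, for which it was chosen after its values were seen (*Il2* and *Cd207*, under that minimum, were added). The members and lists were chosen with earlier results of these data known. Doublets were not called. The calculation was tested on simulated data. Python 3.11.15 with numpy 2.4.6 and scipy 1.17.1 was used.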

Additional observations from a re-analysis of the deposited data

How the results depend on the processing

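No paired analysis was possible because each condition had 1 library and the labels give no replicate numbers. The counts of 18 higher and 98 lower genes became 29 and 153 with CD301b-low cells on both sides, and 57 and 316 with a minimum of 10 CPM. A pseudocount of 10 left 11 higher genes, and equal weights for the other clusters gave 150 lower genes. The other counts, with means over cells, without cells carrying T or B cell transcripts, without the shallowest and deepest cells, relative to the median ratio of abundant genes, or without cluster 5 or clusters 5 to 7, were 17 to 23 higher and 87 to 104 lower. The last pair of comparison groups was chosen after seeing the data. The difference in median CD301b antibody value was -0.93 on the ln scale and -2.41 as log2 of counts per 10000 antibody counts plus 1, a change of unit. It was -0.95 without T or B cell transcripts and without cells of extreme depth. The CD301b-low share was 62.5% to 63.7% under its alternatives.

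Of 270 alternative values for named genes, 157 stayed inside the counting interval of the main value and 107 moved outside it. With CD301b-low cells on both sides, the log2 ratio of *Gpr65* fell from 1.74 to 1.03 and that of *Cxcl10* from 1.44 to 0.94. *Bmyc* fell from 1.38 to 0.97, whereas *Slc7a11* rose from 1.34 to 1.91 and *Ccl5* from 1.66 to 1.95. Another 6 values changed sign, all of them in genes whose highest level is in cluster 5. *Lyz2* went to 0.98 without cluster 5 and 1.27 without clusters 5 to 7, *Plbd1* to 0.97 and 1.13, *Plaur* to 0.19 and *Gm2a* to 0.12 without clusters 5 to 7. Of 207 values for gene lists, 172 were counted as unchanged, 31 as moved and 4 as reversed. The reversed values were the immediate early genes at 0.13 without cluster 5 and 0.13 without clusters 5 to 7. The others were the regulatory enzymes and retinoid genes at 0.22 in CD301b-low cells and 0.075 with equal weights. Among the moved values, the cycling cell list went from -0.12 to 0.029 without cells of extreme depth. With 1 library per condition, differences between mice, libraries and node sites are not covered by any interval.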
